A study of Homo sapiens with 12 samples.

Results

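The LPS response of p50 S80A macrophages was taken from the genes that the authors listed as changed between 0 hr and 3 hr in S80A cells. The S80A table holds 2508 genes, of 3281 listed in the S80A or the wild-type table. They are 14.3% of the 17486 genes tested, a number implied by how adjusted and raw p-values relate. Of these 2508 genes, 1516 were listed as rising (8.67% of those tested) and 992 as falling (5.67%). The table holds only genes that the authors listed as changed, so genes outside it have no S80A call here. Because the rows were chosen on the S80A libraries, their S80A values are given as a description. The wild-type libraries, which were not compared in that choice, serve for the test. Both authors' tables imply the same 17486 tested genes, so the wild-type libraries may have entered the authors' filtering and fit.

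RNA-seq was run on THP-1, a line from a human monocytic leukaemia, after treatment with PMA, a phorbol ester, at 25 ng/ml for 72 hours and a rest of 4 days. The 12 libraries are 4 groups with 3 replicates each: wild-type at 0 hr (no LPS), wild-type at 3 hr of LPS at 10 ng/ml, and S80A at the same time points. All groups share the line, the PMA and the rest, so every value is from PMA-treated cells of 1 leukaemia line. The labels do not say how the S80A cells were made or whether they are 1 clone, so the genotype and the cells that carry it cannot be told apart. Each value is a gene's read count over its library's size factor and is called here a number of scaled reads. Reads on the S80A-listed genes ran from 1614384 to 2231719 in the S80A libraries at 0 hr and from 4230543 to 5389017 at 3 hr. These sums leave out every gene not listed as changed and are not the libraries' depth, for which the labels give a target of 20 M single-end reads of 75 bases. The labels do not say that replicates were separate cultures, so a p-value speaks only for the scatter among these libraries, part or all of which may be technical. In bulk RNA, fewer cells of a type and less RNA per cell cannot be told apart.

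LPS, an outer membrane component of Gram-negative bacteria, is sensed by TLR4 with its partner MD-2 and by CD14, and signals through MyD88 and TRIF to NF-κB, MAP kinases and interferon regulatory factors. p50, made by processing of the NFKB1 product p105, binds κB sites in DNA as a dimer, with RelA or c-Rel or with itself. It has no activation domain of its own, and serine 80 lies in its DNA-binding Rel homology region.

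The sequence around codon 80 shows the serine that S80A names. In the transcripts NFKB1-202 and NFKB1-205 of GENCODE release 29, which code for 968 residues, codon 80 (capitals) is at chr4:102537939-102537941 of GRCh38 on the plus strand, in exon 5 of 24. Codons 71 to 89 of the reference, which run over an exon junction, read as follows, and the S80A allele itself is not shown here.
NFKB1 codons 71 to 89: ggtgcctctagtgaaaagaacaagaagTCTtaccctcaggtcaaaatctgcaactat

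κB matches stand before the start sites of several of the genes described here, and the windows below were chosen because these genes carry the results on subunits, inhibitors, chemokines, cytokines and adhesion molecules. The motif is the κB consensus, searched on both strands in RefSeq promoters of GRCh38.p14 that run from 250 bases before to 50 bases after a start site. Capitals mark the match, and each window is written 5′ to 3′ along the gene's strand.
NFKB1, chr4:102501295-102501334, plus strand: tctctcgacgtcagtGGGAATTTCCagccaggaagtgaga
REL, chr2:60881512-60881552, plus strand: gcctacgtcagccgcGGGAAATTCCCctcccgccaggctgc
NFKBIA, chr14:35404806-35404845, minus strand: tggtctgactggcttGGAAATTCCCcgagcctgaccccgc
CXCL2, chr4:74099248-74099288, minus strand: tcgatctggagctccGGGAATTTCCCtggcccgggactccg
CXCL3, chr4:74038743-74038783, minus strand: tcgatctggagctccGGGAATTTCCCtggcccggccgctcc
PTX3, chr3:157436738-157436778, plus strand: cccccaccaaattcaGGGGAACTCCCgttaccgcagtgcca
IL6, chr7:22727112-22727151, plus strand: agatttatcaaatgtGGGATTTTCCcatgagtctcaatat
IFNB1, chr9:21077984-21078023, minus strand: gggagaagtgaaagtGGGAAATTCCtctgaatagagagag
SELE, chr1:169734149-169734188, minus strand: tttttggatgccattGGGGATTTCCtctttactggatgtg
VCAM1, chr1:100719665-100719704, plus strand: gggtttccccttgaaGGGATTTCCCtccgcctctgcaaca
In CXCL2 and CXCL3, which are neighbours on chromosome 4, the matched letters and the bases just before them are the same. The windows shown are all of rising genes, but falling genes such as ARHGEF3 and PRR5L held a match as well. Among the 10 largest rises and 10 largest falls below, 7 each had a promoter here, and 4 and 2 held a match. A match is a description of the letters and not evidence of binding.

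The promoter table held 1874 of the 2508 genes, 559 of them with more than 1 promoter, and each promoter was counted. The κB consensus was found in 277 of 1651 promoters of rising genes (16.8%), in 159 of 1143 of falling genes (13.9%) and in 11.3% of all 35116 promoters of the table. The share was 14.5% for rises of up to 3 log2, 22.9% for rises over 3 and 30.3% for rises over 5 (37 of 122 promoters), by the authors' deposited log2 change. It was 15.9% for falls over 2 log2. The interferon-stimulated response element (its core form with 2 open bases, on either strand) was found in 6.06% of the promoters of rising genes, 1.84% of those of falling genes and 3.57% of all. TGANTCA, the AP-1 site, was found in 8.48%, 4.02% and 7.71%, and in 13.1% for rises over 5 log2. GCGTGGGCG, the EGR site, was found in 1.45%, 1.05% and 0.795%. TGACGTCA, the cAMP response element, was found in 2.12%, 2.27% and 1.85%. TTGCNNAA, a C/EBP form, was found in 9.75%, 8.22% and 10.5%, and TTTCCCGC, an E2F form, in 1.70%, 1.92% and 1.63%. The C/EBP form was in 13.1% for rises over 5 log2, as was the AP-1 site. For falls over 2 log2 these 2 were in 12.9% and 4.72%. The interferon element was in 7.38% for rises over 5 log2 and 3.00% for falls over 2. Promoters of the same gene can overlap, so the shares carry no test.

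Rises in S80A cells were larger than falls. In the authors' deposited table, 840 genes rose by over 2 log2, 426 by over 3, 120 by over 5 and 15 by over 8, while 210 fell by over 2, 42 by over 3 and 1 by over 5. The median authors' log2 change was 2.17 over the rising and -1.45 over the falling genes. With the 137 rising and 15 falling genes of 3 or fewer reads in the lower group set at their bound or ratio, the medians of the plain log2 ratios were 2.26 and -1.49. In 53 rising genes the 3 S80A libraries at 0 hr held no read, and in 2 falling genes the 3 libraries at 3 hr held none. The 3 hr libraries lay wholly above the 0 hr libraries for 1480 of the 1516 rising genes (50.1% of all 3281 listed genes) and wholly below for 981 of the 992 falling genes (36.5%). A limma fit of the 6 S80A libraries called 2491 of the 2508 in either direction (85.2% of all 3281 genes), which is no separate support.

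The rising genes held more scaled reads at 3 hr than at 0 hr, as follows from their choice in these libraries. Their scaled reads summed to 900402, 1012150 and 1086750 in S80A replicates 1 to 3 at 0 hr and to 5823910, 5494300 and 4814620 at 3 hr. The falling genes went from 707455, 718805 and 668039 to 218652, 249659 and 257551. At 3 hr the 10 genes with the most reads held 16.3% to 17.4% of the scaled reads of the S80A-listed genes, against 10.9% to 11.9% for the top 10 at 0 hr. Per kilobase of exon, IL1B, the pyrogenic cytokine interleukin-1β, had the highest level of the listed genes at 3 hr, with 68532, 50821 and 49505 scaled reads per kb. FTH1, the ferritin heavy chain that stores iron, came next with 45744, 48335 and 44184, and IL8, a neutrophil chemoattractant now named CXCL8, had 42054, 36344 and 49071. These 3 levels do not differ beyond the spread of their libraries in the order FTH1 to IL8, while the lowest IL1B library lay above the highest of both. CXCL10, a chemoattractant for T cells, ranged most, with 35621, 55913 and 12941 per kb. At 0 hr FTH1 was the highest of the listed genes with 21064, 17729 and 14728 per kb, followed by S100A11, a calcium-binding protein, with 12061, 10839 and 8876, and LCP1, an actin bundler of leukocytes, with 6578, 6582 and 6674. Exon lengths are from GENCODE, which may not be the annotation the authors counted on, and 2348 of the 2508 genes could be matched. Each length counts every base in any exon over all transcripts of a gene. It can exceed the length of the main mRNA and so lower a gene's place in the order.

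The largest increases among genes with at least 500 scaled reads were those of IRG1, CCL4L1, IDO1, CCL4, CXCL2, TNIP3, CXCL3, PTX3, CCL8 and IL1A, with authors' deposited log2 changes from 8.46 to 11.37. IRG1, now named ACOD1, the enzyme that makes itaconate, was at 0, 0.776 and 0 scaled reads at 0 hr and 8996, 6142 and 3454 at 3 hr. That is 1 read against 16244, a ratio of 20318 with an exact 95% counting interval from 3646 to 802558, which covers counting error only. IDO1, which degrades tryptophan, had no read at 0 hr and was at 1085, 3791 and 1441 at 3 hr, at least 2279-fold higher, taking 3 reads in the group as the floor. Replicate 1 was the highest of the 3 at 3 hr for IRG1, and replicate 2 for IDO1. CXCL2 and CXCL3, ligands of the neutrophil receptor CXCR2, moved alike. CXCL2 was at 2.99, 1.55 and 6.30 scaled reads at 0 hr and 5565, 4217 and 5064 at 3 hr, and CXCL3 at 0.996, 1.55 and 9.45 scaled reads at 0 hr and 4026, 3560.0 and 4871 at 3 hr. CCL4, a chemokine for monocytes and T cells, was at 25.9, 32.6 and 35.7 scaled reads at 0 hr and 41062, 35895 and 33773 at 3 hr, and CCL8, which attracts monocytes, at 0, 3.10 and 0 scaled reads at 0 hr and 2606, 3368 and 772 at 3 hr. CCL4 was close in its 3 libraries at 3 hr, while CCL8 was lowest in replicate 3. TNIP3, a ubiquitin-binding inhibitor of NF-κB signalling, had no read at 0 hr and was at 2561, 1201 and 645 at 3 hr, at least 1612-fold higher. PTX3, a soluble pattern recognition protein, was at 21.9, 6.98 and 23.1 scaled reads at 0 hr and 12915, 8833 and 7881 at 3 hr. IL1A, the other IL-1 receptor ligand, was at 0, 0.776 and 3.15 scaled reads at 0 hr and 2625, 1578 and 1568 at 3 hr. For all 10 genes the S80A groups did not overlap, as in 1480 of the 1516 rising genes. CCL4L1 is a near-identical copy of CCL4, so the counting may have divided reads between them.

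**Figure D1:**
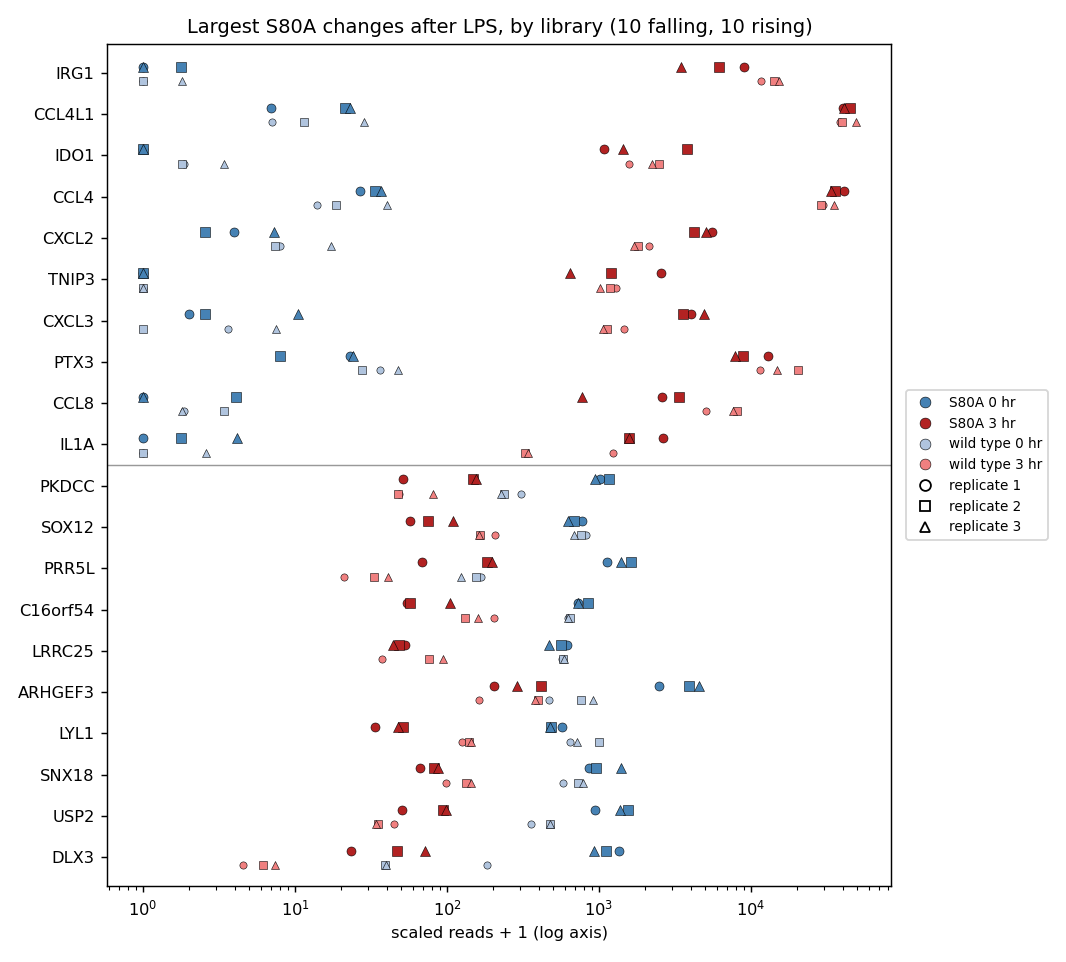
Scaled reads + 1 on a log axis for the 10 falling and 10 rising genes with the largest S80A changes, with 1 marker per library (shape for the replicate number, colour for genotype and time). In every one of the 20 genes the 3 S80A libraries at 3 hr lie apart from the 3 at 0 hr. In ARHGEF3, PRR5L, PKDCC, USP2, DLX3, SNX18 and C16orf54 the S80A libraries at 0 hr lie above the wild-type ones. The same order at 0 hr was found for 35.3% of the 992 falls and 31.6% of all 3281 listed genes. Choosing genes by a large S80A fall favours a high S80A level at 0 hr.

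The largest decreases among genes with at least 500 scaled reads were those of DLX3, USP2, SNX18, LYL1, ARHGEF3, LRRC25, C16orf54, PRR5L, SOX12 and PKDCC, with authors' deposited log2 changes from -4.27 to -3.04. DLX3, a homeobox transcription factor, was at 1356, 1103 and 924 scaled reads at 0 hr and 22.4, 46.0 and 70.7 at 3 hr. USP2, a deubiquitinase, was at 933, 1559.8 and 1364 scaled reads at 0 hr and 49.3, 93.2 and 97.1 at 3 hr. In both genes replicate 1 was the lowest at 3 hr. LYL1, a basic helix-loop-helix factor of blood cells, was at 572, 483 and 472 scaled reads at 0 hr and 32.5, 50.6 and 46.8 at 3 hr. ARHGEF3, an exchange factor for RhoA, was at 2491, 3920.0 and 4569.7 scaled reads at 0 hr and 204, 414 and 289 at 3 hr, and SNX18, a sorting nexin of endocytosis, at 862, 952 and 1396 scaled reads at 0 hr and 65.0, 81.7 and 86.3 at 3 hr. PRR5L, a partner of the kinase complex mTORC2, was at 1122, 1623 and 1385 scaled reads at 0 hr and 67.3, 182 and 197 at 3 hr, and PKDCC, a secreted tyrosine kinase, at 1014, 1157 and 934 scaled reads at 0 hr and 50.5, 147 and 153 at 3 hr. SOX12, a SOX family transcription factor, was at 769.9, 681 and 622 scaled reads at 0 hr and 56.1, 73.6 and 109 at 3 hr. LRRC25, a leucine-rich repeat protein of myeloid cells, was at 612, 558 and 467 scaled reads at 0 hr and 51.6, 47.2 and 43.2 at 3 hr. For all 10 genes the groups did not overlap, as in 981 of the 992 falling genes. By change in scaled reads rather than by ratio, the falls were led by DAB2, an endocytic adaptor, at 17481, 23627 and 23298 scaled reads at 0 hr and 1971, 3866 and 3689 at 3 hr, PCM1, a protein of centriolar satellites, IFNGR1, the ligand-binding chain of the interferon-γ receptor, at 17240.0, 14026 and 16439 scaled reads at 0 hr and 6117, 4431 and 5073 at 3 hr, TNRC18 and ARHGAP30, a GTPase-activating protein, at 9274, 8410.0 and 6660.3 scaled reads at 0 hr and 3147, 3459 and 3217 at 3 hr. The rises by scaled reads were led by IL1B, ICAM1, SOD2, IL8 and TNFAIP2, a TNF-induced gene, at 1442, 890.4 and 797 scaled reads at 0 hr and 95469.7, 87592 and 74133 at 3 hr.

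All 5 subunits of NF-κB were listed as rising, with a median authors' log2 change of 3.72 against 2.17 over all rising genes. NFKB1 itself was at 759.9, 928 and 1062 scaled reads at 0 hr and 28402, 21622 and 19572 at 3 hr. Replicate 1 was the lowest at 0 hr and the highest at 3 hr. The groups did not overlap, as in 1480 of the 1516 rising genes. A codon change is not seen in a gene's read count, so the NFKB1 values cannot test which libraries carry S80A. NFKB2, the precursor of p52, was at 387, 668 and 684 scaled reads at 0 hr and 10710.4, 8669 and 7641 at 3 hr, and REL, which encodes c-Rel, at 148, 151 and 151 scaled reads at 0 hr and 2856, 1845 and 1489 at 3 hr. RELB, the partner of p52, rose by 3.46 and RELA by 1.67 log2 in the authors' deposited table. Of 8 IκB proteins and relatives, 6 were listed, all as rising, against 8.67% of all tested genes. NFKBIZ, a nuclear IκB that works with p50 at a subset of genes, was at 176, 93.1 and 114 scaled reads at 0 hr and 14626, 8307 and 7605 at 3 hr. NFKBIA, the cytoplasmic inhibitor resynthesised in feedback, was at 943, 1217 and 1831 scaled reads at 0 hr and 48864, 34568 and 31310.3 at 3 hr. BCL3, a nuclear IκB that binds p50 and p52 dimers, was at 157, 365 and 360.0 scaled reads at 0 hr and 4412, 5219.8 and 3769 at 3 hr. In NFKBIZ and NFKBIA replicate 1 was the highest at 3 hr, and in BCL3 it was the lowest at 0 hr. In the wild-type libraries limma called all 5 subunits and all 6 IκB genes as rising (52.9% of all 3281 listed genes were called as rising there). The response differed between genotypes for NFKB2 only among these 11 (14.1% of all listed genes had a called difference), with -1.30 ± 0.35 log2 (SE; S80A minus wild type, limma adjusted p = 0.0313), and its wild-type libraries were at 309, 352 and 409.8 scaled reads at 0 hr and 12782, 14822 and 14257 at 3 hr. That call was lost in 8 of 19 alternatives, each without 1 library, with adjusted p up to 0.077.

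Of 29 genes from the LPS receptor to its kinases, 9 rose and 3 fell, against 8.67% and 5.67% of all tested genes. IRAK2, a kinase-like adaptor of the MyD88 pathway, was at 63.7, 159.8 and 229.8 scaled reads at 0 hr and 9507, 8673 and 9197 at 3 hr. MAP3K8, the kinase (TPL2) that p105 holds in the cytoplasm, was at 228, 222 and 248 scaled reads at 0 hr and 4482, 2460.4 and 2525 at 3 hr, against 145, 143 and 198 scaled reads at 0 hr and 6282, 5771 and 5544 at 3 hr in wild-type cells. RIPK2, the kinase of the NOD receptors, was at 244, 210.2 and 298 scaled reads at 0 hr and 3166, 5782 and 5287 at 3 hr. MYD88, TICAM1 (TRIF), TRAF3, TAB2, IKBKE and RIPK1 rose as well, and CD180, CD14 and TAB1 fell. Limma called all 12 the same way in wild-type libraries, where 52.9% of all listed genes were called as rising and 37.7% as falling. The response differed for MAP3K8 alone (-1.48 ± 0.34 log2, SE, adjusted p = 0.0181), a call kept in all 19 alternatives. Of 19 ubiquitin regulators of NF-κB, 10 were listed as rising and 1, PELI3, as falling. TRAF1, an adaptor of TNF receptors, was at 113, 264 and 282 scaled reads at 0 hr and 48779.9, 50633 and 50912 at 3 hr. BIRC3, the ubiquitin ligase cIAP2, was at 6.97, 23.3 and 82.9 scaled reads at 0 hr and 10404, 5419 and 5237 at 3 hr. Replicate 1 was the lowest at 0 hr for both. The groups did not overlap, as in 1480 of the 1516 rising genes.

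Of 37 inflammatory cytokines and growth factors, 25 were listed as rising and 1, TNFSF14, as falling, against 8.67% and 5.67% of all tested genes. The median authors' log2 change of the rising ones was 4.43 (5.04 for the plain ratio with 3 genes of 3 or fewer reads at their bound or ratio). IL1B was at 152, 1802 and 4669 scaled reads at 0 hr and 212176, 157342 and 153267 at 3 hr. At 0 hr its libraries spanned 152 to 4669 scaled reads, and replicate 1 was the lowest there and the highest at 3 hr. TNF, the first-line inflammatory cytokine, was at 31.9, 63.6 and 78.7 scaled reads at 0 hr and 11073, 12412 and 16356 at 3 hr. IL6, which drives fever and the acute phase, had no read at 0 hr and was at 333, 285 and 197 at 3 hr, at least 296-fold higher. Wild-type cells had 1 read at 0 hr and 1525, 1733 and 1356 scaled reads at 3 hr, so the genotypes did not overlap at 3 hr. The limma difference was -2.24 ± 0.38 log2 (SE, adjusted p = 0.00481), but it depends on the pseudocount where a group has no reads, and neither edgeR (adjusted p = 0.742) nor DESeq2 called it. CSF2, the growth factor GM-CSF, had no read at 0 hr and was at 122, 430.2 and 552 at 3 hr, lowest in replicate 1. IL12B, a subunit of IL-12 and IL-23, also had no read at 0 hr and was at 314, 28.8 and 37.2, highest in replicate 1. IL23A, the other subunit of IL-23, was at 13.7 ± 7.31 scaled reads at 0 hr (SD, n = 3) and 2747, 751 and 518 at 3 hr, highest in replicate 1 at both times. IL10, the main anti-inflammatory cytokine, was at 26.9, 12.4 and 9.45 scaled reads at 0 hr and 426, 633 and 474 at 3 hr. LIF, a cytokine of the IL-6 family, ranged from 25.8 to 435 scaled reads at 3 hr and was lowest in replicate 1. Limma called all 26 listed cytokines the same way in wild-type cells, where 52.9% of all listed genes were called as rising and 37.7% as falling. It called the difference between genotypes for 6 of the 26, against 14.1% of all listed genes, with a larger S80A response in CSF2 and IL18 and a smaller one in IL6, IL12B, IL27 and LTA.

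Of 34 chemokines, 19 were listed, all as rising, against 8.67% of all tested genes. Their median authors' log2 change was 7.48 (8.41 for the plain ratio with 2 genes at their bound or ratio). CXCL10 was at 29.9, 81.4 and 23.1 scaled reads at 0 hr and 41889.7, 65753 and 15218 at 3 hr, CCL3, a CCR1 ligand, at 158, 385 and 423 scaled reads at 0 hr and 33341, 42648 and 43646 at 3 hr, and CCL20, the CCR6 ligand, at 21.9, 143 and 479 scaled reads at 0 hr and 33148, 44591 and 50683 at 3 hr. IL8 was at 27.9, 131 and 696 scaled reads at 0 hr and 95630.1, 82646 and 111588 at 3 hr. Replicate 1 was the lowest at 0 hr for CCL3, CCL20 and IL8, while CXCL10 was lowest in replicate 3 at both times. All 19 rose in wild-type cells by limma, as did 52.9% of all listed genes. The response was larger in S80A cells for CXCL2, CXCL6 and CCL22 and smaller for CCL19, whose S80A libraries held only 16.8, 2.30 and 3.60 scaled reads at 3 hr. CXCL2 reached 2125, 1810.5 and 1709.7 scaled reads in wild-type cells at 3 hr, below all 3 S80A libraries, and was at 6.93, 6.43 and 16.1 at 0 hr. Its response differed by 2.65 ± 0.55 log2 (SE, adjusted p = 0.0115), past the threshold in all 19 alternatives. CXCL3 showed the same order of levels at 3 hr (1456, 1122 and 1056 in wild-type cells), and its difference of 1.45 ± 0.99 log2 had an adjusted p of 0.329.

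Of 50 interferon-stimulated genes, 42 were listed, all as rising, against 8.67% of all tested genes. Their median authors' log2 change was 2.85 (2.97 for the plain ratio with 2 genes at their bound or ratio). IFNB1, interferon β, was at 0, 0 and 1.05 scaled reads at 0 hr and 172, 210.5 and 243 at 3 hr. That is 1 read against 539, a ratio of 674 with an exact 95% counting interval from 120.5 to 26677. IFIT2, which binds viral RNA, was at 150.4, 361 and 148 scaled reads at 0 hr and 49509, 38956 and 14324 at 3 hr, and OASL, a sensor-like protein of the oligoadenylate synthetase family, at 74.7, 111 and 32.5 scaled reads at 0 hr and 11652, 10987 and 5772 at 3 hr. In both, replicate 3 was the lowest at 0 hr and at 3 hr. Over the 42 genes, replicate 3 was the lowest library at 3 hr in 40 and replicate 2 the highest in 31. Over all 1516 rising genes the same counts were 757 and 472. All 42 rose in wild-type cells by limma, as did 52.9% of all listed genes. The difference between genotypes was called for GBP4 alone, with a smaller S80A response. Of 19 IRF and STAT factors, 12 were listed, all as rising, and replicate 2 was the highest at 3 hr in 10. IRF4, a factor of B cells and alternatively activated macrophages, was at 0, 0 and 3.15 scaled reads at 0 hr and 129, 357 and 188 at 3 hr, against 12.9, 14.5 and 22.5 at 3 hr in wild-type libraries. Its S80A group held 3 reads at 0 hr, a ratio of 243 with an exact 95% counting interval from 82.6 to 1180.1. Its difference of 3.67 ± 0.82 log2 (SE, adjusted p = 0.0153) was kept in 18 of 19 alternatives and was not called by edgeR (adjusted p = 0.183). STAT5A, a signal transducer of GM-CSF, was at 733, 741 and 501 scaled reads at 0 hr and 11559, 14039.8 and 12555 at 3 hr, and BATF2, an interferon-induced factor, at 112, 190.0 and 103 scaled reads at 0 hr and 2826, 4122 and 2068 at 3 hr. IRF8, a macrophage and dendritic cell factor, was at 2016, 783 and 541 scaled reads at 0 hr and 5934, 6551 and 5004 at 3 hr, and its libraries were spread at 0 hr and close at 3 hr.

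Of 35 AP-1, EGR, NR4A and other early transcription factors, 24 were listed as rising and 2, CEBPA and HES1, as falling. NR4A1, an orphan nuclear receptor induced by many stimuli, was at 15.9, 3.88 and 5.25 scaled reads at 0 hr and 2263, 1554 and 1020.3 at 3 hr, and NR4A3 at 23.9, 16.3 and 16.8 scaled reads at 0 hr and 5458, 2134 and 1526 at 3 hr. Replicate 1 was the highest at 3 hr for both. IER3, an early response gene linked to survival, was at 25.9, 111 and 143 scaled reads at 0 hr and 1714, 3176 and 4419 at 3 hr. MYC, which drives growth and biosynthesis, was at 899, 766 and 660.2 scaled reads at 0 hr and 3294, 2162 and 2766 at 3 hr and at 1854, 2358 and 1859 scaled reads at 0 hr and 1301, 1323 and 1587 at 3 hr in wild-type cells, where limma called a fall of -0.52 ± 0.16 log2 (SE, adjusted p = 0.0203). Krüppel-like factors were divided, with 6 of 16 listed as rising and 3 as falling. KLF4, a factor of monocyte differentiation, was at 1235, 1208 and 1420.0 scaled reads at 0 hr and 274, 240.4 and 290.1 at 3 hr, and KLF7 at 471, 392 and 389 scaled reads at 0 hr and 1769, 2442 and 2195 at 3 hr. Wild-type KLF4 was at 548, 528 and 473 scaled reads at 0 hr and 321, 457 and 433 at 3 hr, with no call by limma (adjusted p = 0.0869). The difference was -1.89 ± 0.27 log2 for KLF4 (SE, adjusted p = 0.00213) and 1.49 ± 0.26 log2 for KLF7 (adjusted p = 0.0053), both kept in all 19 alternatives. KLF5 was at 13.9, 35.7 and 77.7 scaled reads at 0 hr and 156, 645 and 873 at 3 hr, with replicate 1 the lowest at both times. Of 32 nuclear receptors, 3 were listed as rising, among them PPARD, a fatty acid sensor, and 6 as falling, among them RARA, RXRA and THRA. NR5A2, a receptor of liver and endocrine tissues, was at 112, 208 and 351 scaled reads at 0 hr and 41.5, 12.7 and 44.4 at 3 hr in S80A cells and at 4.33, 0.804 and 1.61 scaled reads at 0 hr and 38.8, 37.4 and 21.4 at 3 hr in wild-type cells. Of 51 chromatin modifiers, 7 were listed as rising and 3 as falling, against 8.67% and 5.67% of all tested genes. KDM6B, the histone H3 demethylase JMJD3, was at 357, 472 and 322 scaled reads at 0 hr and 3337, 3249 and 2939 at 3 hr. DOT1L, a methyltransferase of histone H3, was at 1477, 2805 and 2281 scaled reads at 0 hr and 4958, 7479 and 7429 at 3 hr, and HDAC5, a histone deacetylase, at 2837, 2709 and 2357 scaled reads at 0 hr and 634, 995 and 1117 at 3 hr.

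Regulators that limit the response were listed mostly as rising. Of 25 mRNA decay factors and MAP kinase phosphatases, 12 rose and 3 fell, against 8.67% and 5.67% of all tested genes. CCRN4L, now named NOCT and known as Nocturnin, a circadian phosphatase of the deadenylase fold, was at 68.7, 65.9 and 71.4 scaled reads at 0 hr and 3346, 4522 and 3308 at 3 hr. In wild-type cells it was at 223, 252 and 251 scaled reads at 0 hr and 1103, 1297 and 1402 at 3 hr, so the S80A libraries were lower than every wild-type library at 0 hr and higher at 3 hr. Its difference of 3.35 ± 0.26 log2 (SE, adjusted p = 8.53e-05) was kept in all 19 alternatives. ZC3H12A, the RNase Regnase-1 that degrades cytokine mRNAs, was at 247, 306 and 325 scaled reads at 0 hr and 11772, 8310.4 and 7897 at 3 hr. DUSP2, a phosphatase of MAP kinases, was at 78.7, 283 and 232 scaled reads at 0 hr and 9449, 4569.9 and 3611 at 3 hr. Of 25 SOCS, IL-10 axis and inhibitory receptor genes, 13 rose and 2, TSC22D3 and SOCS6, fell. SOCS3, which blocks the IL-6 receptor, was at 114, 81.4 and 76.6 scaled reads at 0 hr and 13085, 14266 and 9168 at 3 hr, and CD274, the ligand PD-L1 of T cell inhibition, at 1.99, 6.20 and 6.30 scaled reads at 0 hr and 2571, 3506 and 822 at 3 hr. TNFAIP6, a hyaluronan-binding protein of inflamed tissue, was at 0, 2.33 and 3.15 scaled reads at 0 hr and 6935, 1647 and 1340.4 at 3 hr, with replicate 1 the highest at 3 hr. IL10 and IL1R2, a decoy receptor for IL-1, had a larger response in S80A cells by limma. IL10 had a difference of 2.97 ± 0.52 log2 (SE, adjusted p = 0.0053).

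**Figure D2:**
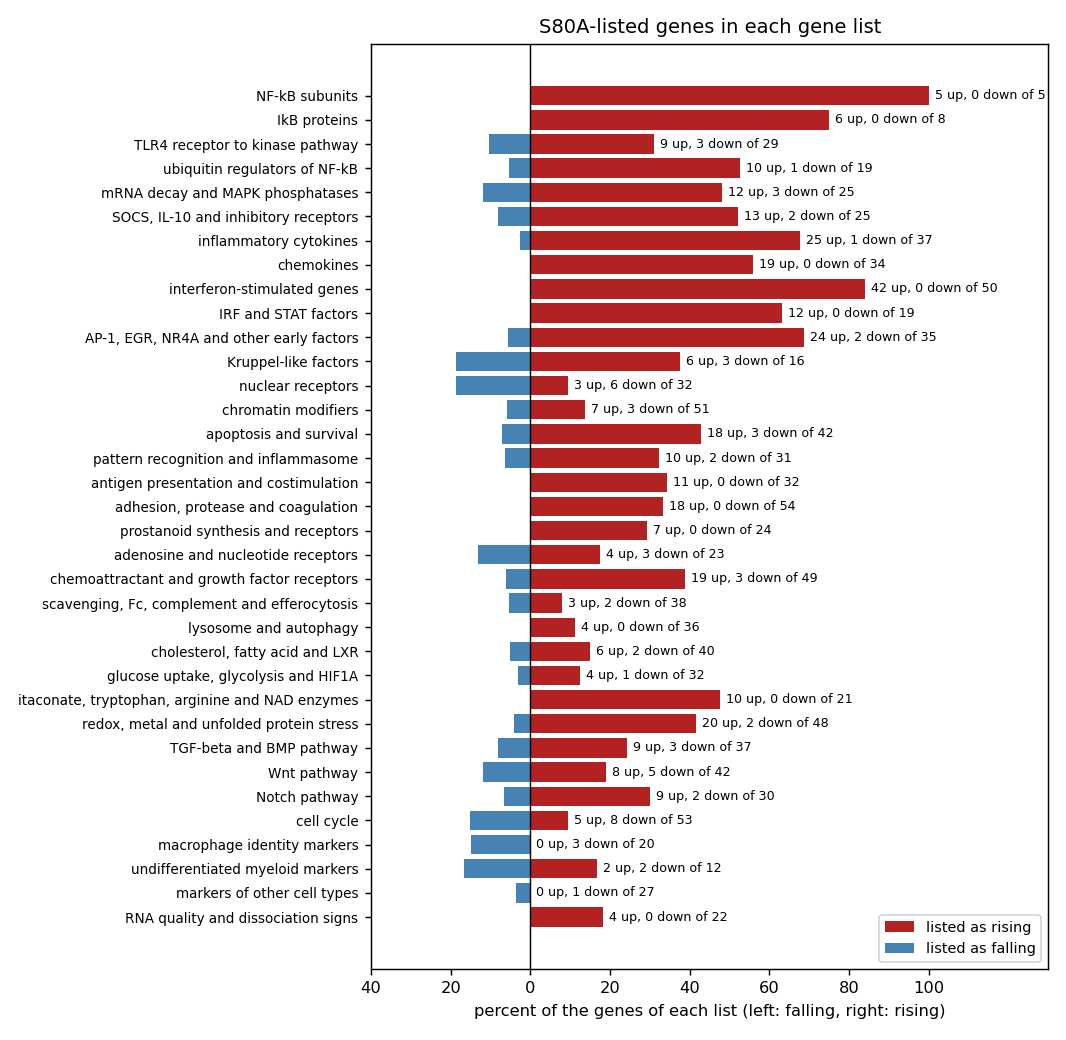
Percent of the genes of each of 35 gene lists that were listed as rising (right) or falling (left) in S80A cells, with the counts beside the bars. Subunits of NF-κB (5 of 5) and interferon-stimulated genes (42 of 50) have the highest shares of rising genes. Macrophage identity markers (3 of 20) and markers of other cell types (1 of 27) hold only falls. Of all tested genes, 8.67% were listed as rising and 5.67% as falling.

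Surface and matrix genes were listed in 1 direction for several groups. Of 54 adhesion, protease and coagulation genes, 18 were listed, all as rising, against 8.67% of all tested genes. SELE, the endothelial adhesion molecule E-selectin, had no read in any 0 hr library of either genotype. At 3 hr it was at 277, 359 and 421 scaled reads in S80A cells, at least 379-fold higher, and at 14.1, 5.19 and 4.28 in wild-type cells, at least 9.26-fold higher, and the genotypes did not overlap. The limma difference was 5.46 ± 0.47 log2 (SE, adjusted p = 0.000172). Its size depends on the pseudocount. The call was kept in 18 of 19 alternatives and lost with edgeR (adjusted p = 0.9998). VCAM1, a ligand of leukocyte integrins, was at 0, 3.10 and 2.10 scaled reads at 0 hr and 63.9, 322 and 509.6 at 3 hr, lowest in replicate 1. ICAM1, a ligand of the same family, was at 2056, 4728 and 5632 scaled reads at 0 hr and 112801, 138662 and 129494 at 3 hr. PLAU, the protease urokinase, was at 2169, 2302 and 1963 scaled reads at 0 hr and 40823, 24471 and 23231 at 3 hr, with a difference of 1.96 ± 0.38 log2 (SE, adjusted p = 0.00903). Of 32 antigen presentation and costimulation genes, 11 were listed, all as rising, with CD40, a receptor for T cell help, at 239, 188 and 94.5 scaled reads at 0 hr and 10479, 8091 and 6838 at 3 hr and CD83, a maturation marker, at 370.5, 409.5 and 506 scaled reads at 0 hr and 27013, 18852 and 18436 at 3 hr. CD80, a ligand of CD28, was at 0, 6.98 and 5.25 scaled reads at 0 hr and 425, 491 and 370.5 at 3 hr. SERPINB9, the inhibitor of granzyme B, was at 24.9, 34.1 and 27.3 scaled reads at 0 hr and 2171, 727 and 345 at 3 hr. Of 24 prostanoid genes, 7 were listed, all as rising. PTGS2, the inducible cyclooxygenase, was at 48.8, 55.1 and 84.0 scaled reads at 0 hr and 13368, 3909.6 and 3321 at 3 hr, with replicate 1 the highest at 3 hr, PTGER2 at 0, 7.76 and 8.40 scaled reads at 0 hr and 239, 80.5 and 87.5 at 3 hr and PTGER4 at 1011, 1727 and 1698 scaled reads at 0 hr and 12106, 13147 and 12949 at 3 hr. The last 2 encode receptors of prostaglandin E2.

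Of 31 pattern recognition and inflammasome genes, 10 rose and 2, NLRC4 and PYCARD, fell. NLRP3, the inflammasome sensor, was at 2839, 2649 and 2128 scaled reads at 0 hr and 12774, 11974 and 12992 at 3 hr, and TLR2, the lipoprotein receptor, at 1512, 2011 and 3266 scaled reads at 0 hr and 12848, 13144 and 12209 at 3 hr. Both had a larger response in S80A cells, by 1.72 ± 0.24 log2 (SE, adjusted p = 0.00208) and 1.44 ± 0.37 log2 (adjusted p = 0.026). NLRC4, an inflammasome sensor of flagellin, was at 427, 229.6 and 181 scaled reads at 0 hr and 44.9, 26.5 and 21.6 at 3 hr. AIM2, a DNA sensor, was at 0.996, 10.9 and 17.8 scaled reads at 0 hr and 173, 178 and 106 at 3 hr, and MEFV, which encodes pyrin, at 218, 105 and 40.9 scaled reads at 0 hr and 2744, 891 and 382 at 3 hr. MEFV was highest in replicate 1 and lowest in replicate 3 at both times. Of 49 chemoattractant and growth factor receptors, 19 rose and 3, CXCR2, IFNGR1 and CCR1, fell. IL18R1 and IL18RAP, the chains of the IL-18 receptor, were at 1.99, 11.6 and 35.7 scaled reads at 0 hr and 2118, 4083 and 4671 at 3 hr and at 0, 3.10 and 6.30 scaled reads at 0 hr and 656, 688 and 715 at 3 hr. IL2RA, the high-affinity IL-2 receptor chain, had no read at 0 hr and was at 48.2, 101 and 67.1 at 3 hr, at least 78.0-fold higher, against 23.5, 26.0 and 17.1 in wild-type cells. Of 23 adenosine and nucleotide receptor genes, 4 rose, among them P2RX7, an ATP-gated channel that acts upstream of NLRP3, and 3 fell, among them P2RY1, an ADP receptor, at 123, 137 and 146 scaled reads at 0 hr and 16.8, 40.3 and 31.2 at 3 hr. Of 38 scavenging, Fc, complement and efferocytosis genes, 3 rose and 2, DAB2 and MERTK, fell, near the 8.67% and 5.67% of all tested genes. OLR1, a scavenger receptor for oxidised lipoprotein, was at 218, 43.4 and 65.1 scaled reads at 0 hr and 6405, 3474 and 2827 at 3 hr, and CFB, complement factor B, at 29.9, 21.7 and 15.7 scaled reads at 0 hr and 272, 121 and 98.3 at 3 hr.

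Of 21 genes of itaconate, tryptophan, arginine and NAD metabolism, 10 were listed, all as rising, and replicate 3 was the lowest at 3 hr in 9. NAMPT, which makes an NAD precursor, was at 264, 238 and 437 scaled reads at 0 hr and 17229, 8388 and 4265 at 3 hr. Of 48 redox, metal and unfolded protein stress genes, 20 rose and 2, SLC30A1 and GCLC, fell. SOD2, the mitochondrial superoxide dismutase, was at 843, 937 and 1534 scaled reads at 0 hr and 162629.5, 94739 and 78722 at 3 hr, and MT2A, a metallothionein, at 60.8, 51.2 and 34.6 scaled reads at 0 hr and 1204, 2243 and 1478 at 3 hr. PPP1R15A, which restores translation after stress, was at 1368, 2086 and 2141 scaled reads at 0 hr and 13339, 13774 and 12350.3 at 3 hr. HIF1A, PFKFB3, SLC2A6 and VHL rose and PFKFB4 fell among 32 genes of glucose uptake, glycolysis and hypoxia. HIF1A, the hypoxia-inducible factor, was at 2934, 3269 and 3457 scaled reads at 0 hr and 15017, 17659.6 and 13606 at 3 hr. Of 40 cholesterol and fatty acid genes, 6 rose and 2 fell. Of all tested genes, 8.67% were listed as rising and 5.67% as falling. INSIG1, which retains the sterol sensor in the endoplasmic reticulum, was at 614, 823 and 946 scaled reads at 0 hr and 5899, 6093 and 5194 at 3 hr, and ABCA1, the cholesterol efflux pump, at 1436, 1576 and 1432 scaled reads at 0 hr and 4660.0, 5721 and 3859 at 3 hr. Of 36 lysosome and autophagy genes, 4 rose. SQSTM1, an autophagy receptor, was at 4471, 5911 and 5620.3 scaled reads at 0 hr and 16884, 22447 and 26096 at 3 hr, and GABARAPL1, a protein of the autophagosome, at 391, 292 and 251 scaled reads at 0 hr and 759, 917 and 954 at 3 hr. Wild-type GABARAPL1 was at 230.4, 154 and 187 scaled reads at 0 hr and 125, 141 and 128 at 3 hr, which limma called as a fall (adjusted p = 0.0304), and the difference of 2.02 ± 0.31 log2 (SE, adjusted p = 0.00309) was kept in all 19 alternatives. The wild-type call was not past the threshold with the replicate block (adjusted p = 0.0521) or without wild-type replicates 1 or 3 at 0 hr or 1 or 3 at 3 hr (0.0708 to 0.0793). Of 42 apoptosis and survival genes, 18 rose and 3 fell, with BCL2A1, an anti-apoptotic BCL2 relative, at 87.6, 364 and 390.4 scaled reads at 0 hr and 10580.3, 9264 and 8352 at 3 hr. GADD45B, a stress-induced regulator of MAP kinases, was at 190.2, 209 and 136 scaled reads at 0 hr and 4111, 5267 and 3582 at 3 hr, and CASP5, an inflammatory caspase, at 52.8, 23.3 and 26.2 scaled reads at 0 hr and 962, 511 and 351 at 3 hr. In all 3 the groups did not overlap, as in 1480 of the 1516 rising genes.

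Developmental pathways held more listed rises than falls, and 8.67% of all tested genes were listed as rising and 5.67% as falling. Of 37 genes of TGF-β and BMP signalling, 9 rose and 3 fell. NRROS, which anchors latent TGF-β1 on microglia and macrophages, was at 2552, 3527 and 2463 scaled reads at 0 hr and 506, 548 and 426 at 3 hr, and ID3, an inhibitor of helix-loop-helix factors, at 2212, 1067 and 928 scaled reads at 0 hr and 155, 80.5 and 93.5 at 3 hr. ACVR2A, an activin receptor, was at 154, 261 and 549 scaled reads at 0 hr and 2947, 2450.0 and 3105 at 3 hr. Of 42 Wnt genes, 8 rose and 5 fell. SFRP1, a secreted Wnt antagonist, was at 56.8, 88.4 and 108 scaled reads at 0 hr and 521, 2112 and 2183 at 3 hr, against 192, 159 and 131 scaled reads at 0 hr and 229, 173 and 172 at 3 hr in wild-type cells, where limma did not call it (adjusted p = 0.259). Its difference of 3.76 ± 0.68 log2 (SE, adjusted p = 0.00615) was kept in all 19 alternatives, and its S80A 3 hr level was lowest in replicate 1. WNT6, a Wnt ligand, was at 147, 129.5 and 132 scaled reads at 0 hr and 8.97, 38.0 and 44.4 at 3 hr, and FZD2, a Wnt receptor, at 178, 185 and 137 scaled reads at 0 hr and 42.6, 44.9 and 16.8 at 3 hr. Of 30 Notch genes, 9 rose and 2 fell, and replicate 1 was the lowest at 3 hr in 8 of the 11. DLL4, a Notch ligand induced by TLR signals, was at 9.96, 31.0 and 37.8 scaled reads at 0 hr and 528, 1792 and 2621 at 3 hr. HEY2, a Notch target, was at 67.7, 381 and 472 scaled reads at 0 hr and 1.12, 11.5 and 19.2 at 3 hr, while the wild-type libraries held at most 3.11 scaled reads. Its difference of -5.95 log2 (limma, adjusted p = 0.0102) was kept in 18 of 19 alternatives and was not called by edgeR (adjusted p = 0.0576). Of 53 cell cycle genes, 5 rose and 8 fell. CDKN1A, the cyclin kinase inhibitor p21, rose, E2F7, a repressor of cell cycle genes, was at 102, 171 and 309.6 scaled reads at 0 hr and 1089, 1556 and 2009 at 3 hr, and PLK1, a mitotic kinase, was at 374, 348 and 291 scaled reads at 0 hr and 201, 71.3 and 89.9 at 3 hr, highest in replicate 1 at 3 hr. PLK2, a stress-induced polo-like kinase, was at 1275, 2941 and 4011 scaled reads at 0 hr and 247, 322 and 900.4 at 3 hr.

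Of 20 macrophage markers, 3 were listed, all as falling. Of all tested genes, 14.3% were listed in either direction and 5.67% as falling. MERTK, the receptor for apoptotic cells, was at 1826, 2539 and 1978 scaled reads at 0 hr and 423, 460.1 and 566 at 3 hr, CEBPA, a myeloid transcription factor, at 5183, 3837 and 2745 scaled reads at 0 hr and 1357, 1414 and 1109 at 3 hr, and CD14 at 2245, 6211 and 3529.6 scaled reads at 0 hr and 1041, 1809 and 1587 at 3 hr. The CD14 groups did not overlap, as in 981 of the 992 falling genes. The CD14 limma retest was not past the threshold without S80A replicate 2 at 0 hr (adjusted p = 0.0607) or replicate 1 at 3 hr (adjusted p = 0.0610). Another 16 markers, CD68 and CSF1R among them, were in neither table and have no values here, apart from CD163 in the wild-type table, so the macrophage label could be checked only on those with values. Of 12 markers of undifferentiated myeloid cells, CD34 and CD38 rose and CEBPE and GFI1 fell. Of 27 markers of other cell types only CD79B, a B cell receptor chain, was listed, with 45.8, 39.6 and 21.0 scaled reads at 0 hr and 11.2, 12.7 and 8.39 at 3 hr. Of 22 signs of RNA quality and cell stress, NEAT1, MALAT1, DNAJA1 and HSPA1B rose, with NEAT1 at 995, 1238 and 1163 scaled reads at 0 hr and 4523, 4275 and 3871 at 3 hr and HSPA1B, a heat shock protein, at 154, 158 and 183 scaled reads at 0 hr and 344, 396 and 283 at 3 hr. Replicate 3 was the lowest at 3 hr for all 4. Their part in the other results was not tested.

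Genes of small RNAs were among the rising ones. MIR155HG, the host RNA of miR-155, was at 40.8, 73.7 and 161 scaled reads at 0 hr and 2600.2, 1763 and 1549 at 3 hr, and MIR146A, listed as a gene of its own, at 1.99, 0 and 0 scaled reads at 0 hr and 19.1, 10.4 and 12.0 at 3 hr. Both miRNAs are known to be induced by NF-κB and to act on TLR signalling. MIR17HG, the host of the miR-17 cluster, was at 8.96, 19.4 and 48.3 scaled reads at 0 hr and 406, 189 and 179.8 at 3 hr, and MIR22HG at 186, 185 and 212 scaled reads at 0 hr and 1108, 766 and 858 at 3 hr. All 4 rose in wild-type cells by limma (adjusted p up to 0.000957), as did 52.9% of all listed genes. The difference between genotypes was called for none (adjusted p from 0.128 to 0.622). MIR637, also listed as rising, went from 3.51 ± 1.72 to 17.5 ± 5.69 scaled reads (SD, n = 3) in S80A cells and from 3.30 ± 0.140 to 1.81 ± 1.22 in wild-type cells, with a called difference of 2.76 ± 0.48 log2 (SE, adjusted p = 0.0053). MIR600HG fell, from 171, 204 and 147 to 32.5, 48.3 and 71.9 scaled reads, with a wild-type change of -0.47 ± 0.22 log2 that was not called (adjusted p = 0.0818). Poly(A) libraries measure the host or primary RNA and not the mature miRNA. The mature 5p arms are shown from RefSeq (GRCh38.p14) because they are what these RNAs carry, at chr21:25573983-25574006 and chr5:160485372-160485393 on the plus strand, with the seed (bases 2 to 8) in capitals, and the seeds differ.
hsa-miR-155-5p: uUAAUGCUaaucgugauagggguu
hsa-miR-146a-5p: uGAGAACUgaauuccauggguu

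The 3 S80A replicates differed from each other more than the wild-type ones did. Over 1096 rising genes with at least 20 scaled reads in both S80A groups, the median coefficient of variation was 25.3% at 0 hr and 22.5% at 3 hr in S80A cells, against 13.4% and 12.8% in wild-type cells. Over 801 falling genes it was 18.6% and 22.1% against 11.6% and 15.3%. The response of a replicate was taken as its 3 hr library minus the 0 hr library of the same number. The median log2 response of the rising genes was 2.41, 2.23 and 1.98 in replicates 1, 2 and 3, and that of the falling genes -1.69, -1.52 and -1.41. By this pairing replicate 1 had the largest response in both directions, and whether same-numbered libraries belong together was not tested. Among rising genes it was the lowest library at 0 hr in 817 of 1516 and the highest at 3 hr in 740. Cytokines and chemokines followed this at 0 hr, with replicate 1 the lowest in 21 of 26 and 15 of 19. Replicate 1 stood apart in counts at 3 hr in both genotypes. The chi-square per gene of replicate 1 against replicates 2 and 3 was 141 and 199 in S80A cells, where replicates 2 and 3 differed by 59.8, and 63.6 and 48.9 in wild-type cells, where they differed by 10.1. At 0 hr it was 47.6 and 72.9 against 37.0 in S80A cells and 25.3 and 19.6 against 9.53 in wild-type cells. The genes with the widest spread at 3 hr were MMP10, LIF, GRASP, C2CD4B and GUCY1A3 among the rising and LBH, TUBA8, SPRY2, MYBPH and IER5L among the falling. GRASP, a scaffold protein of receptor trafficking, was at 607, 114 and 38.4 at 3 hr. MMP10, the protease stromelysin-2, was at 21.3, 311 and 373, and SPRY2, an inhibitor of growth factor signalling, at 648, 2391 and 2826. GRASP was highest in replicate 1, and the other 9 were lowest in it.

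**Figure D3:**
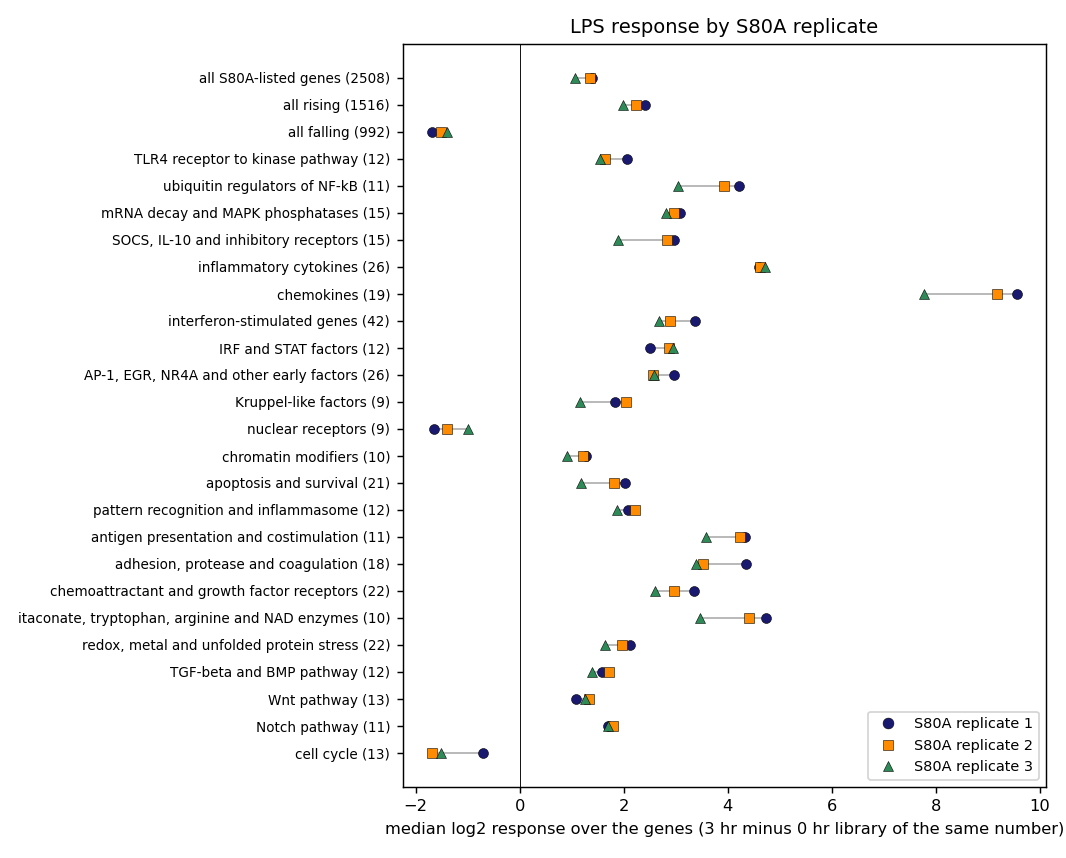
Median log2 response over the S80A-listed genes of each gene list with at least 9 of them (number in brackets), with 1 marker per S80A replicate, on a log2 axis. Replicate 3 has the smallest median for chemokines (7.77 against 9.56 and 9.18) and for itaconate and tryptophan enzymes (3.47 against 4.74 and 4.42), while the 3 cytokine medians lie between 4.61 and 4.72.

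Most S80A-listed genes moved the same way in the wild-type libraries, whose change was not used to list them. Limma on the 6 wild-type libraries, with Benjamini-Hochberg adjustment over all 3281 genes and a threshold of 0.05, called 1329 of the 1516 rising genes as rising (87.7%, with 52.9% of all listed genes called as rising), 12 as falling and 175 in neither direction. Of the 992 falling genes, 842 were called as falling (84.9%, with 37.7% of all listed genes called as falling), 18 as rising and 132 in neither direction. The 3281 listed genes include these and were all listed for a change in S80A or wild-type cells. Their shares are therefore no outside baseline, and genes listed in neither have no values here. The 3 hr libraries lay wholly above the 0 hr ones in wild-type cells for 1341 rising genes (53.3% of all listed genes), and wholly below for 850 falling genes (38.0%). The median limma log2 change of the rising genes was 2.19 in S80A and 1.82 in wild-type cells, and of the falling genes -1.50 and -1.13. Genes were listed for a change over 1 log2 in S80A cells, which favours the larger S80A medians. Across the 2508 genes the log2 changes were correlated at 0.90 (Pearson) and 0.89 (Spearman). Genes are not independent replicates, and both scales come from the same choice of rows. The larger the S80A rise, the more often wild-type cells were called the same way, from 79.0% of 395 genes with an authors' log2 change of 1 to 1.5 to 98.3% of 120 with a change over 5. For falls the share went from 82.1% of 535 genes to 92.7% of 41 with a change of 3 to 5. Presence in the authors' wild-type table, which asks for a change over 1 log2, ran from 43.3% to 96.7% for rises over the same classes and from 40.2% to 80.5% for falls (8.24% and 5.11% of the tested genes were listed as rising and falling in wild-type cells).

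**Figure D4:**
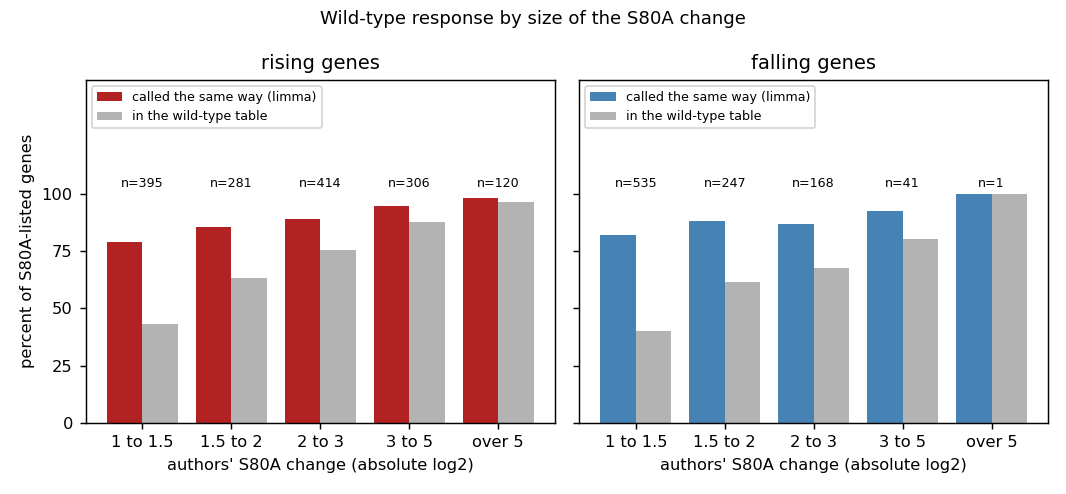
Percent of the S80A-listed genes, by size of the authors' S80A change, that limma called the same way in wild-type libraries (coloured bars) and that are in the authors' wild-type table (grey bars), with the number of genes above. Called shares run from 79.0% to 98.3% for rising genes, and the falling class over 5 holds 1 gene.

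The S80A table held 946 genes that the wild-type table did not, 469 rising and 477 falling. Of these, limma called 285 and 333 the same way in wild-type cells, and 10 and 12 the other way. The difference of the response between genotypes was called for 128 of the 469, all with a larger S80A rise, and for 82 of the 477, all with a larger S80A fall (14.1% of all 3281 genes were called for the difference). These rows passed the authors' thresholds in S80A cells and not in wild-type cells, in the same libraries, which favours such calls. FGF18, a fibroblast growth factor, was at 0, 3.10 and 2.10 scaled reads at 0 hr and 109, 143 and 223 at 3 hr in S80A cells and at 4.33, 4.83 and 0.807 scaled reads at 0 hr and 9.40, 3.11 and 4.28 at 3 hr in wild-type cells. C2CD4A and C2CD4B, nuclear proteins of inflamed endothelium that neighbour each other, were at 65.0, 473 and 681 and at 103, 1139 and 1572 at 3 hr, both lowest in replicate 1, and at most 3.21 and 10.7 in wild-type cells, and neither edgeR (adjusted p = 0.956 and 0.591) nor DESeq2 (0.142 and 0.168) called their difference. TMEM52B, a transmembrane protein, was at 49.8, 3.88 and 4.20 scaled reads at 0 hr and 149, 127 and 138 at 3 hr. FSTL3, an activin antagonist, was at 59.8, 48.9 and 60.9 scaled reads at 0 hr and 241, 1456 and 2008 at 3 hr, also lowest in replicate 1 at 3 hr. Among the falls, TRG-AS1, an RNA antisense to the T cell receptor gamma locus, was at 66.7, 102 and 91.3 scaled reads at 0 hr and 19.1, 19.6 and 18.0 at 3 hr in S80A cells and at 76.2, 124 and 132 scaled reads at 0 hr and 107, 237 and 188 at 3 hr in wild-type cells. PLEKHH3, a pleckstrin homology domain protein, was at 252, 283 and 190.0 scaled reads at 0 hr and 76.2, 61.0 and 64.7 at 3 hr, and BMP2K, a kinase of endocytosis, at 2285, 2452 and 3012 scaled reads at 0 hr and 1414, 1052 and 990.3 at 3 hr. The differences of FGF18 (5.36 ± 0.84 log2, SE, adjusted p = 0.00357), TRG-AS1 (-2.76 ± 0.44 log2, 0.00367), PLEKHH3 (-2.28 ± 0.29 log2, 0.00132) and BMP2K (-2.09 ± 0.28 log2, 0.0016) were kept in all 19 alternatives. The reads of TRG-AS1 may include reads of its antisense partner, since the strand setting of the counting is not given in the sources used here.

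A total of 30 genes were listed in 1 direction in S80A cells and called in the other by limma in wild-type cells. The 12 that rose in S80A and fell in wild-type cells were CXCR4, PIK3R1, FERMT1, GABARAPL1, GLRX, NEIL2, PRLR, MYC, ATP1B1, CCNA1, PIK3C2B and FOXO1. FOXO1, a forkhead factor held out of the nucleus by AKT, was at 45.8, 76.0 and 80.8 scaled reads at 0 hr and 147, 378 and 445 at 3 hr in S80A cells and at 55.4, 61.9 and 47.6 scaled reads at 0 hr and 23.5, 27.0 and 25.7 at 3 hr in wild-type cells. PIK3C2B, a class II PI3-kinase, was at 298, 222 and 134 scaled reads at 0 hr and 667, 811 and 998 at 3 hr and at 288, 224 and 198 scaled reads at 0 hr and 95.1, 61.2 and 46.0 at 3 hr, and PIK3R1, the regulatory subunit of class I PI3-kinase, at 1682, 1383 and 1728 scaled reads at 0 hr and 2573, 4097 and 4813 at 3 hr and at 1354, 1145 and 1306 scaled reads at 0 hr and 814, 869 and 863 at 3 hr. In these 3 genes neither pair of groups overlapped. CXCR4, the receptor for CXCL12, started higher in wild-type cells (1027, 1052 and 1264 scaled reads against 259, 238 and 191) and was at 522, 458 and 573 against 715, 337 and 355 at 3 hr. The 18 that fell in S80A and rose in wild-type cells were HEY2, KDR, NR5A2, LOC100505501, PLK2, HOXA5, PLEKHH3, FZD4, PRR7, TPPP, LBH, LRIG3, LZTS1, BMP2K, PHLDA3, RNF217, GAREM and LGR4. KDR, the VEGF receptor of endothelium, was at 38.8, 48.1 and 88.2 scaled reads at 0 hr and 2.24, 8.05 and 9.59 at 3 hr in S80A cells and at 3.46, 2.41 and 1.61 scaled reads at 0 hr and 12.9, 5.19 and 8.56 at 3 hr in wild-type cells. PLK2 was at 78.8, 55.5 and 68.6 scaled reads at 0 hr and 385, 236 and 273 at 3 hr in wild-type cells, so that S80A cells were higher at 0 hr. LGR4, a receptor for R-spondins, and FZD4, a Wnt receptor, differed by -2.94 ± 0.45 log2 and -3.20 ± 0.55 log2 (SE, adjusted p = 0.00308 and 0.00493). Of the 30 wild-type calls, 15 were kept in every alternative that tested the gene, and those of ATP1B1, CCNA1, FERMT1, GABARAPL1, GAREM, GLRX, HEY2, LBH, LRIG3, LZTS1, MYC, PLEKHH3, PRLR, PRR7 and RNF217 were lost in at least 1. The difference between genotypes was called for all 30, and for 24 in every alternative that tested the gene, but opposite calls in the same libraries had already chosen them.

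**Figure D5:**
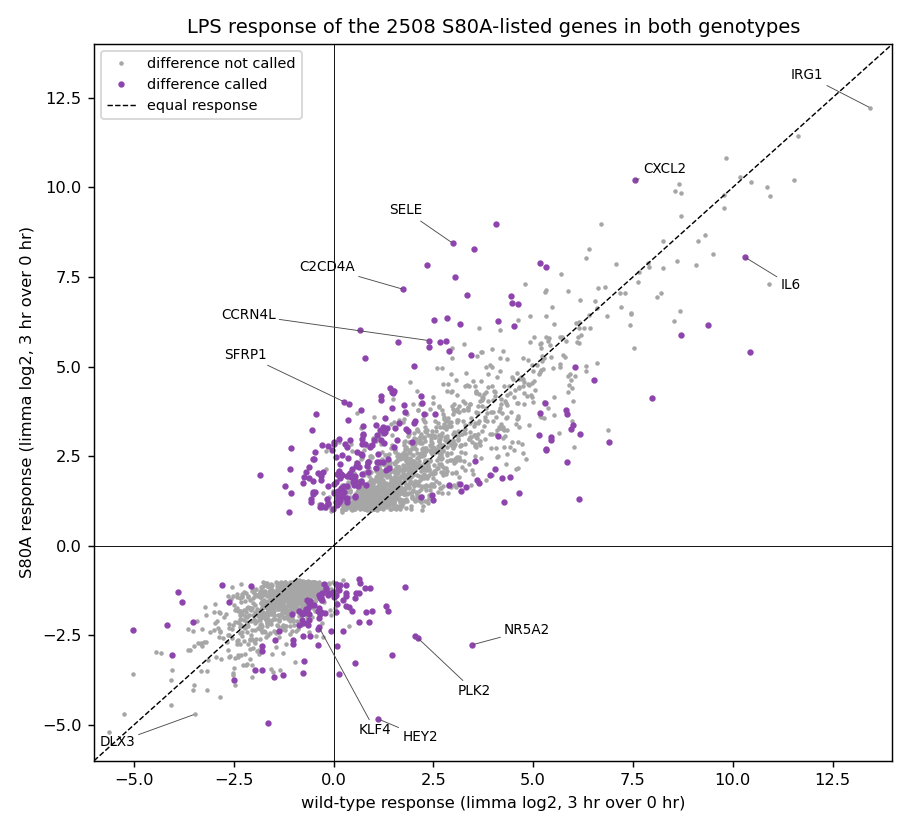
Limma log2 response of each of the 2508 S80A-listed genes in S80A cells (vertical) against wild-type cells (horizontal), with the 328 genes called for the difference in purple and equal response as a dashed line. The empty band around 0 on the vertical axis is the authors' threshold, and HEY2, PLK2 and NR5A2 lie on opposite sides of 0 in the 2 genotypes.

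The response differed between genotypes for 328 of the 2508 genes (14.1% of all 3281 listed genes were called). Of the rising genes, 182 had a larger and 39 a smaller response in S80A cells (7.19% and 6.95% of all listed genes were called with a higher and a lower S80A response). Of the falling genes, 98 fell further and 9 fell less in S80A cells. The S80A libraries that enter this test also chose the rows, which favours larger S80A responses. The count was 546 without S80A replicate 1 at both times, 457 without it at 3 hr only and 372 without it at 0 hr only. It was 185 to 219 without wild-type replicates 1, 2 or 3 at 0 hr, wild-type replicates 2 or 3 at 3 hr, or S80A replicate 2 at either time. MERTK fell less in S80A cells, from 1826, 2539 and 1978 to 423, 460.1 and 566 scaled reads, against 857, 826 and 1014 to 81.0, 65.4 and 84.6 in wild-type cells (1.41 ± 0.29 log2, SE, adjusted p = 0.0107). Of the 35 genes named by the rule with a called difference, 17 kept the call in all 19 alternatives, namely BMP2K, CCRN4L, CXCL2, FGF18, GABARAPL1, KLF4, KLF7, MAP3K8, MERTK, NR5A2, NRROS, PHLDA3, PLEKHH3, PLK2, SFRP1, TNRC18 and TRG-AS1. Some of the 35 were named because the difference was called.

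For the 182 genes with a larger S80A rise, the genotypes were mostly apart after LPS. The S80A libraries at 3 hr lay wholly above the wild-type ones in 154 (84.6%, against 46.6% of all rising genes and 35.7% of all 3281), and those at 0 hr wholly below in 64 (35.2%, against 17.3% and 17.5%). For the 98 genes with a larger S80A fall, the S80A libraries at 3 hr lay wholly below in 73 (74.5%, against 37.2% of all falling genes and 23.3% of all 3281), and those at 0 hr wholly above in 48 (49.0%, against 35.3% and 31.6%). KLF4, ARHGEF3, PLK2, LBH and PHLDA3 are falling genes whose S80A libraries at 0 hr lay above every wild-type one. PHLDA3, a p53 target that restrains AKT, was at 1318, 1539.6 and 1335 scaled reads at 0 hr and 432, 654 and 808 at 3 hr in S80A cells and at 171, 219 and 138 scaled reads at 0 hr and 381, 262 and 275 at 3 hr in wild-type cells. NRROS is a gene whose S80A libraries at 3 hr lay below every wild-type one (1108, 1411 and 1533). For the 39 genes with a smaller S80A rise, the S80A libraries lay wholly below at 3 hr in 24 (61.5%, against 12.5% of all rising genes and 23.3% of all 3281) and wholly above at 0 hr in 21 (53.8%, against 26.1% and 31.6%). These counts come from the libraries that called the difference and describe where it lay.

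At the edge of the authors' threshold of 1 log2, GRWD1, a ribosome assembly factor, NXF1, an mRNA exporter, and MSN, which links actin to the membrane, were the smallest rises in the table. NAGPA, SLC22A15 and TRIM3 were the smallest falls. MSN was at 18033, 17126 and 15241 scaled reads at 0 hr and 32817, 35109 and 33559.6 at 3 hr, and TRIM3, a ubiquitin ligase, at 141, 206 and 145 scaled reads at 0 hr and 63.9, 77.1 and 102 at 3 hr. Just outside, and listed in the wild-type table only, HDAC9, P2RX4 and ENPP2 had S80A limma changes nearest below 1, and CLN8, LAMB2P1 and LIMK1 nearest above -1. CLN8, a protein of the endoplasmic reticulum, was at 1099.5, 1121 and 1114 scaled reads at 0 hr and 556, 496 and 622 at 3 hr, and P2RX4, an ATP-gated channel, at 2334, 3372 and 2261 scaled reads at 0 hr and 4335, 6018 and 5443 at 3 hr, so genes on either side of the threshold had similar values.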

How the data were processed

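RNA was measured by stranded poly(A) RNA-seq in 12 libraries, 4 groups of 3. Per the submitters' processing notes, tools were FastQC, HISAT, StringTie, Cuffdiff, HTSeq and DESeq2 on GRCh38, with no versions, and neither annotation nor strand setting is given by the sources used here. The deposited signal values are gene reads over a size factor for each library (0.834 to 1.29), since all values came back as whole reads within 0.01. The authors' deposited tables also hold log2 changes, p-values and adjusted p-values, and list genes with an adjusted p below 0.01 and a change over 1 log2. Both tables hold the same 12 library columns, so the 3281 genes of either table were analysed together. No column without a sample was used (0 columns).

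Responses were fitted with limma 3.58.1 in R 4.3.3 on log2(scaled reads + 1), which understates the change of low genes, with Benjamini-Hochberg adjustment over 3281 genes and a threshold of 0.05, and the code was tested on simulated data. The S80A and wild-type responses used 6 libraries each, and the difference all 12. Groups did not overlap where all 3 libraries of 1 lay above all 3 of the other. Alternatives were pseudocounts of 0.5 and 5, a mean of 20, a replicate block, edgeR 4.0.16 and DESeq2 1.42.0 on the recovered reads, a fit of all 12 libraries, and leaving out libraries. The replicate numbers come from the titles. Deviations from the group mean correlated within each number between 0 hr and 3 hr (r over 2879 genes 0.41, 0.28 and 0.22 in wild-type and 0.33, 0.38 and 0.21 in S80A cells). Replicate 2 at 0 hr against replicate 3 at 3 hr was close to the last of these, at 0.20 in wild-type and 0.18 in S80A cells. Between genotypes the same numbers correlated at 0.21, 0.32 and 0.31 at 0 hr and at 0.19, 0.25 and 0.073 at 3 hr. What the numbers stand for was not tested. The main fits did not pair libraries, and only the replicate block did. Bounds and intervals cover counting error only.

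The members and gene lists were chosen with earlier results of these data known. Genes were named by rule: NFKB1; the 10 largest rises and 10 largest falls with a mean of at least 500; the 5 with the largest change in scaled reads each way; the 3 largest of each list with a mean of at least 50; the 6 each way with the largest difference past the threshold among genes not in the wild-type table; the 5 each way with the widest spread at 3 hr; and 3 each side of each threshold. Other genes of the lists, those of opposite direction, the per-length levels and the noncoding RNAs were named after their values were seen. Promoters and miRNAs are from RefSeq (GRCh38.p14), exons and codons from GENCODE 29. A single gene that the rule also names was left out and is not reported here.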

Additional observations from a re-analysis of the deposited data

Results flagged for a closer look

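The LPS response differed between S80A and wild-type cells, by the limma test of the difference itself, in 35 of the 151 genes named by the rule (14.1% of all 3281 listed genes were called). The rule named 6 genes each way because their difference was called and large, so their place among the 35 was fixed in advance. The values below are log2 differences, S80A minus wild type. Of the 17 that were past the threshold in all 19 alternatives, the response was higher in S80A cells for FGF18 (5.36), SFRP1 (3.76), CCRN4L (3.35), CXCL2 (2.65), GABARAPL1 (2.02), KLF7 (1.49) and MERTK (1.41), and lower for NR5A2 (-6.23), PLK2 (-4.68), TRG-AS1 (-2.76), PLEKHH3 (-2.28), BMP2K (-2.09), PHLDA3 (-1.99), NRROS (-1.93), KLF4 (-1.89), MAP3K8 (-1.48) and TNRC18 (-1.30). For 7 genes with few reads in at least 1 group the call was lost with edgeR, and the fitted value depends on the pseudocount. These were SELE (5.46), C2CD4A (5.41), C2CD4B (4.46), IRF4 (3.67) and IL2RA (1.61) on the higher side and HEY2 (-5.95) and IL6 (-2.24) on the lower side. The call of C2CD4B was kept in 6 of 19 alternatives and those of SELE, IRF4 and HEY2 in 18. For the other 11 the call was lost without at least 1 library, and for LBH also with a pseudocount of 0.5. The difference was above 0 for TMEM52B (4.11), FSTL3 (3.58), E2F7 (2.00) and PPARD (1.29), and below 0 for LBH (-3.01), ARHGEF3 (-2.35), C16orf54 (-1.50), NFKB2 (-1.30), SNX18 (-1.26), ZC3H12A (-1.06) and KDM6B (-1.05). BMP2K, PLEKHH3, PLK2, NR5A2, HEY2, LBH and PHLDA3 fell in S80A cells and were called as rising in wild-type cells, where the calls of PLEKHH3, HEY2 and LBH were lost in at least 1 alternative. NRROS fell in both and further in S80A cells, MERTK fell in both and further in wild-type cells, and KLF4 and TRG-AS1 fell in S80A cells while their wild-type changes were not called (-0.37 and 0.64 log2, adjusted p = 0.0869 and 0.124). S80A libraries that enter these tests also chose the genes.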

How the results depend on the processing

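No called change or difference among the 2508 genes changed sign in an alternative that tested it, and the call was kept in all of them for 2232 of 2491 genes in S80A cells, 1957 of 2201 in wild-type cells (either direction) and 135 of the 328 differences. With other pseudocounts, a filter at a mean of 20 scaled reads, edgeR, DESeq2, the replicate block or a fit of all 12 libraries, 2261 to 2508 of the 2508 genes were called in S80A cells (2491 in the main analysis) and 1936 to 2201 in wild-type cells in the S80A direction (2171), and without single libraries 2341 to 2438 and 2058 to 2164. The count of differing responses, 328, was 288 to 461 in the first kind of alternative, and 185 to 546 without single libraries or without S80A replicate 1 at both times, which was chosen after seeing the data. Of the 328, 221 were genes that rose in S80A cells (127 to 379 over all alternatives) and 107 genes that fell (53 to 167). With the replicate block, which pairs same-numbered libraries, it was 431, and the wild-type count was 2201. The block left every named call on its side of the threshold except the wild-type fall of GABARAPL1. Of the 35 named differences, edgeR lost 7, DESeq2 4, a pseudocount of 0.5 lost 2, and leaving out wild-type replicates 1, 2 or 3 lost 12, 7 and 8 at 0 hr and 4, 11 and 12 at 3 hr. Leaving out S80A replicates 1, 2 or 3 lost 1, 11 and 6 at 0 hr and 0, 11 and 6 at 3 hr. The cause was not tested. The named S80A calls lost without 1 library were those of CD14, CD38, GFI1, GUCY1A3, IER5L, LBH, MYBPH, SPRY2, TRIM3 and TUBA8, 24 of 1015 values. Depth limited the folds of 137 rising genes and 15 falling genes with 3 or fewer reads over the lower S80A group.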

Other observations

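Of the 2348 genes matched to an annotated type, 24 long intergenic noncoding RNAs rose and 8 fell, as did 24 and 10 antisense RNAs, and 5 small nucleolar RNAs rose. LINC00346 was at 3.98, 3.10 and 6.30 scaled reads at 0 hr and 361, 114 and 94.7 at 3 hr, and LUCAT1 at 51.8, 65.9 and 91.3 scaled reads at 0 hr and 554, 519 and 507 at 3 hr. ADORA2A-AS1, antisense to the adenosine receptor gene ADORA2A that also rose, was at 0, 0.776 and 0 scaled reads at 0 hr and 176, 86.3 and 119 at 3 hr. All 3 rose in wild-type cells by limma (adjusted p = 3.02e-05, 1.39e-05 and 9.24e-06), as did 52.9% of all listed genes. SENCR, an RNA of vascular cells, was at 95.6, 74.5 and 53.5 scaled reads at 0 hr and 130.1, 171 and 163 at 3 hr in S80A cells and at 110.0, 119.8 and 117 scaled reads at 0 hr and 85.7, 106 and 109 at 3 hr in wild-type cells, with a difference of 1.28 ± 0.32 log2 (SE, limma adjusted p = 0.0246). HOXA11-AS was at 259, 296 and 239 scaled reads at 0 hr and 91.9, 121 and 103 at 3 hr in S80A cells and at 261, 272 and 232 scaled reads at 0 hr and 197, 199 and 233 at 3 hr in wild-type cells, with a difference of -1.05 ± 0.25 log2 (adjusted p = 0.0217). Antisense values may hold reads of the partner gene.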
